A study of Mus musculus with 8 samples.

Results

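Of 8 mouse small cell lung cancer (SCLC) lines profiled by bulk RNA sequencing, 2 expressed a neuroendocrine program together with Rest and Yap1, and these intermediate lines are described here against the 3 lines at either extreme. The intermediate lines are RP replicate 2 (RP 2) and RPC replicate 1 (RPC 1). They were selected on expression in these same libraries: lines holding both neuroendocrine genes and Rest/Yap1 were set apart from the NE-high lines, RP 1, RP 3 and RPC 2, and from the NE-low lines, RP 4, RPC 3 and RPC 4. Every difference between the 3 line sets is therefore given as a description, without a test. Values are listed throughout in the order RP 1, RP 3, RPC 2 for the NE-high lines, RP 2, RPC 1 for the intermediate lines, and RP 4, RPC 3, RPC 4 for the NE-low lines.

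RP lines come from mice with floxed Rb1 and Trp53, and RPC lines from mice that carry floxed Casp8 alleles as well. The mice inhaled adenoviral CMV-Cre at an age of 8 to 12 weeks, so deletion was not restricted to one lung cell type. Each line was grown from the endpoint tumor of a different mouse, in RPMI medium with 10% FCS, and received no treatment. Lines cultured from digested tumors can still hold host cells, and each line is a single culture. The intermediate lines differ in genotype, 1 being RP and 1 RPC, and are not replicates of one condition.

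Neuroendocrine SCLC cells express secretory granule proteins and synaptic genes. REST is a repressor of neuronal genes in non-neuronal cells, and YAP1 is a transcriptional coactivator of the Hippo pathway that is typically low in neuroendocrine SCLC. A non-neuroendocrine state with Notch activity, REST and YAP1 is known from this mouse model, where it can arise within neuroendocrine tumors.

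Between 7128455 and 10169996 counts were obtained per line, and 11541 to 13223 genes had at least 10 counts. The kit reads the 3′ end of polyadenylated RNA, so a count reflects transcripts and not their length. Levels below are CPM, that is counts relative to library size, scaled by TMM factors, which ranged from 0.9061 to 1.092 and were lowest in the NE-low lines. Mitochondrial transcripts made up 5.66 to 9.63% of counts. Reads of a deleted Casp8 transcript can still reach its 3′ end, so its count does not check the deletion. Casp8, the initiator caspase of death receptors, stood at 35.5 CPM in RP 2 and 10.8 CPM in RPC 1, against 10.8, 19.9 and 67.2 CPM in RP 1, RP 3 and RP 4 and 3.8, 7.25 and 17.2 CPM in RPC 2, RPC 3 and RPC 4. The RPC and RP levels overlapped. Rb1 was at 3.25 and 2.41 CPM in the intermediate lines, and Trp53 at 0.304 and 1 CPM.

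The defining genes followed the selection, and only for Rest were the ranges of the 3 sets free of overlap. Calca, on chromosome 7 (114230712 to 114235592, GRCm39, minus strand), encodes the neuroendocrine peptide CGRP. It measured 274.5, 209.2 and 375.3 CPM in the NE-high lines, 251.5 and 78.2 CPM in the intermediate lines, and 0, 0.105 and 6.67 CPM in the NE-low lines. RP 2 thus lay within the NE-high range and RPC 1 below it, while RPC 1 was still well above RPC 4, the nearest NE-low line. Rest, on chromosome 5 (77408131 to 77434284, plus strand), measured 0.438, 0.501 and 46 CPM, then 166.8 and 220.8 CPM, then 313.1, 270 and 294.8 CPM. The intermediate mean was 193.8 ± 38.2 CPM (SD, n = 2), against 15.7 ± 26.3 CPM (n = 3) in NE-high and 292.6 ± 21.6 CPM (n = 3) in NE-low lines. RPC 2 is the NE-high line closest to the boundary, with Rest clearly detected. Yap1, on chromosome 9 (7932000 to 8004661, minus strand), measured 0, 5.41 and 13 CPM, then 96.1 and 59.6 CPM, then 103.3, 99.4 and 42.7 CPM. Both intermediate lines exceeded the NE-low line RPC 4 for Yap1.

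**Figure D1:**
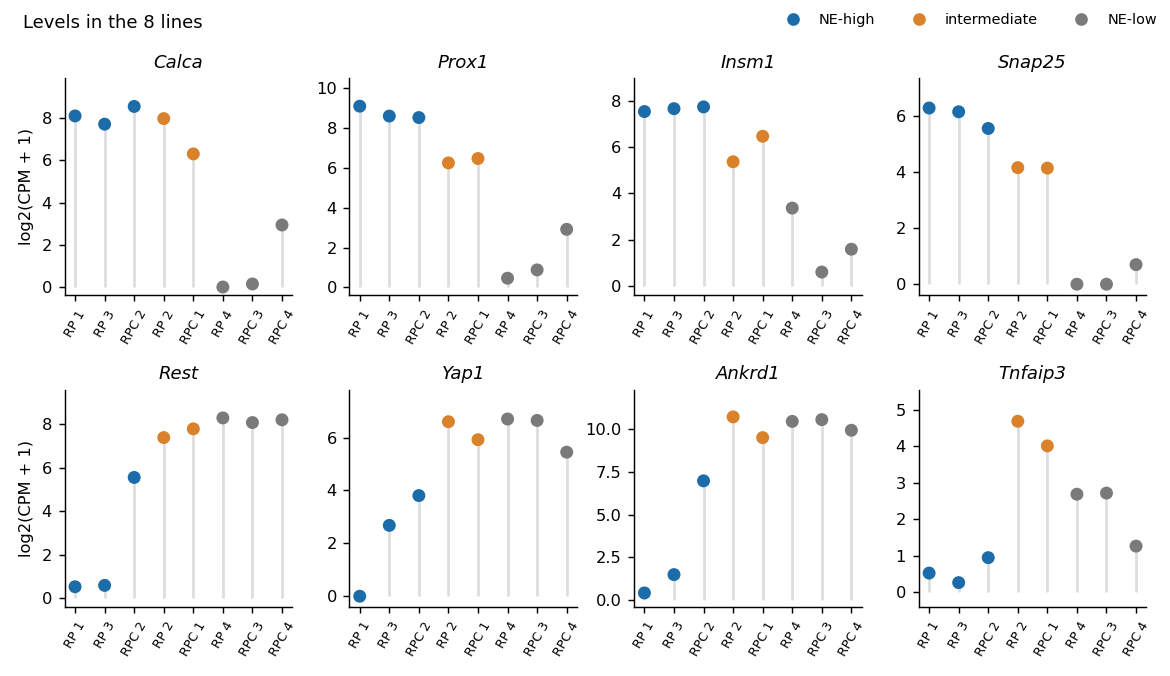
Levels of 8 genes in the 8 lines, as log2(CPM + 1), with 1 point a line coloured by line set and a grey stem from 0. Prox1, Insm1 and Snap25 sit between the extremes in RP 2 and RPC 1, Rest, Yap1 and Ankrd1 sit near the NE-low lines, and Tnfaip3 is highest in the intermediate lines.

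To sort all genes, a gene was counted as different between 2 sets only when every line of one lay at least 2-fold above every line of the other on the log2(CPM + 1) scale. This scale understates the difference of genes near 0. Of 13189 genes with a mean of at least 1 CPM, 581 (4.41%) were higher in the intermediate than in the NE-high lines and 363 (2.75%) were lower. Against the NE-low lines, 470 (3.56%) were higher and 13 (0.0986%) lower. The median difference over all genes was -0.01 against NE-high and 0.05 against NE-low lines, both near 0. The intermediate lines differed from the NE-high lines in both directions, and from the NE-low lines mostly by genes that were higher.

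Part of these genes could be put into classes by both comparisons, and the others entered no class. The intermediate lines shared 520 genes (3.94%) with the NE-low lines that were higher than in NE-high lines, and 132 genes (1%) that were lower, where shared means that the set means lay within 1 log2 unit. With the NE-high lines they shared 120 genes (0.91%) that were higher than in NE-low lines and 11 (0.0834%) that were lower. Sharing did not require the extremes themselves to differ. By the same 2-fold rule NE-high and NE-low lines were not apart for 198 of the 520 genes (38.1%) and 64 of the 120 (53.3%). Another 146 genes (1.11%) lay between the extremes, below NE-high and above NE-low lines, and 1 gene (0.00758%), Gjc1, lay between in the opposite order. Only 3 genes (0.0227%) were higher than in both extremes and 0 (0%) were lower than in both. With RPC 1 alone as the intermediate line 58 genes were above both extremes, and with RP 2 alone 43, and the 3 genes are those called with both lines. Leaving out an extreme line gave between 3 and 21 genes, the most without RPC 3.

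Genes that were high in the NE-low lines were mostly high in the intermediate lines too. Of the 129 genes (0.978%) at least 4-fold higher in every NE-low than in every NE-high line, 102 were shared with the NE-low lines by this rule. The YAP/TAZ list, which holds YAP1's partners and target genes, gave 10 of 24 genes shared with NE-low, 0 in any other class and the rest in none. Yap1, on which the lines were selected, is 1 of the 10. The list had a median difference of 2.78 log2 units from NE-high and -0.07 from NE-low lines. Ankrd1, a target gene of YAP1, measured 0.329, 1.8 and 124.7 CPM in NE-high, 1684.5 and 725.6 CPM in intermediate, and 1402.7, 1507.1 and 978.3 CPM in NE-low lines. The intermediate range overlapped the NE-low range and was far above NE-high. Tead2, a DNA-binding partner of YAP1, measured 0.11, 5.31 and 7.42 CPM, then 50.5 and 55.6 CPM, then 102, 78.4 and 125.4 CPM. Lats2, the Hippo kinase, and Ccn2, a matrix protein gene activated by YAP1, were 4.42 and 5.04 log2 units above the NE-high mean. For Axl, the receptor tyrosine kinase that GAS6 binds (chosen after its values were seen), the intermediate lines held 274.4 and 130.6 CPM, where NE-high lines had at most 37.6 CPM.

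A minority of the receptors and signalling genes of other pathways was in the same class, which held 3.94% of all genes entered. Of 23 receptor tyrosine kinase genes 7 were shared with NE-low, among them Met, the receptor of hepatocyte growth factor, at 55.6 and 118.5 CPM against at most 7.61 CPM in NE-high lines, and Egfr, at 19.1 and 29.9 CPM against at most 4.27 CPM. Epha4, an ephrin receptor, reached 393.1 CPM in RP 2, above all NE-low lines, and 134.1 CPM in RPC 1. Of 30 TGF-beta and BMP genes 6 were shared with NE-low, including the receptor Tgfbr2 (90 and 30.3 CPM), the signal transducer Smad3 (73.8 and 54.2 CPM) and the inhibitory Smad7 (47.1 and 48.4 CPM). Among 25 WNT pathway genes 4 were shared with NE-low, with the receptor Fzd2 at 73.5 and 66.6 CPM and 0, 0 and 13 CPM in NE-high lines. In the same list Wnt4, a ligand, fell in the class shared with NE-high, but of these lines only RP 1 was above the intermediate lines. It measured 52.2, 0.401 and 1.86 CPM in NE-high, 7.81 and 7.73 CPM in intermediate, and 0.126, 1.47 and 1.09 CPM in NE-low lines. Nkd1, a WNT inhibitor, lay between, and the ligand Wnt5b was shared with NE-low at a level below NE-high. Notch2 and its target Hes1, a transcriptional repressor, were shared with NE-low at a level above NE-high. Hes1 measured 1.86, 17.8 and 19.5 CPM, then 229.1 and 107.7 CPM, then 259.4, 226.7 and 44.8 CPM, and Notch2 measured 6.02, 4.61 and 8.91 CPM, then 48.1 and 41 CPM, then 28.2, 59.5 and 16.8 CPM. In the Notch list as a whole 3 of 18 genes were shared with NE-low, the last being the ligand Jag1 at 20.2 and 93.1 CPM. Hes6, a proneural relative of Hes1, lay between the extremes at 96.1 and 115.4 CPM.

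The EMT and mesenchymal list had 9 of 25 genes shared with NE-low, with a median difference of 2.68 log2 units from NE-high and -0.38 from NE-low lines. Zeb2, a repressor of epithelial genes, stood at 27.5 and 21.4 CPM against at most 4.83 CPM in NE-high lines. Loxl2, a matrix crosslinking enzyme, stood at 163.9 and 78.6 CPM against at most 6.87 CPM, and Col5a1, a fibrillar collagen, at 109.3 and 89.5 CPM against at most 24.8 CPM. In the NE-low lines Zeb2 measured 4.54, 39.6 and 25.1 CPM, Loxl2 11.9, 417.5 and 164.5 CPM, and Col5a1 21.6, 526.3 and 113.6 CPM. The NE-low line RP 4 was thus below both intermediate lines for these genes, and below RPC 2 for Zeb2 and Col5a1. Markers of fibroblasts and smooth muscle moved with these genes. Their summed level, over 14 genes of the table, was 5651.8 CPM in RP 2, of which Acta2, smooth muscle actin, gave 5408.7 CPM, and 508.2 CPM in RPC 1. In NE-high lines the sum ranged from 6.81 to 72 CPM, and in NE-low lines from 74 to 5932.1 CPM. Col1a1, a fibrillar collagen, gave most of the sum in RPC 1, with 364.1 CPM there, 168.2 CPM in RP 2 and at most 24.2 CPM in NE-high lines. Of the 6 members entered 3 were above NE-high lines, while 6 of the 14 were at 3 counts or fewer in the intermediate lines, including Pdgfra, a defining fibroblast gene. The part of host cells in these levels was not tested. Immune markers summed to 2.94 CPM in RP 2 and 11.6 CPM in RPC 1, the highest of the 8 lines, of which Cd14, a monocyte receptor, gave 7.43 CPM. Endothelial markers summed to 7.71 and 7.03 CPM. Ptprc, which marks leukocytes, and Cdh5, the endothelial cadherin, were at 0 in both intermediate lines.

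Some inflammatory and immediate early genes were shared with the NE-low lines at a higher level than in NE-high lines, the class that held 3.94% of all genes entered. Of 20 AP-1 genes 5 were in this class, among them Fosl1, an AP-1 subunit, at 47.8 and 50.1 CPM against 0, 0.601 and 11.5 CPM in NE-high lines, and Ier3, an early response gene, at 448.1 and 327.3 CPM against 3.72, 3.21 and 112.2 CPM. The interferon list had 4 of 20 in the class, including the RNA sensor Rigi (35.4 and 13.6 CPM) and the chemokine Cxcl10 (5.99 and 21.8 CPM). In the list of MHC class I presentation 3 of 12 were shared with NE-low, with B2m, the invariant light chain, at 173.2 and 126.9 CPM against 16.3, 3.61 and 27.3 CPM in NE-high lines. The 5 genes with the largest separation from NE-high lines were Ccl9, Vcam1, Sgk1, S100a11 and Nfkbiz. Ccl9, a chemokine, measured 24.9 CPM in RP 2 and 97.7 CPM in RPC 1 against 0, 0.1 and 0.557 CPM. Vcam1, an adhesion molecule that inflammatory signals raise, measured 41.3 and 94.3 CPM against 0.11, 0.702 and 1.58 CPM. S100a11, a calcium-binding protein gene, measured 652 and 360.7 CPM against 0.548, 0.601 and 30.1 CPM. Myc, the oncogene, also belonged to this class at a low level, 6.19 and 6.12 CPM against at most 1.39 CPM.

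In the opposite direction, the 132 genes that the intermediate lines shared with NE-low at a lower level than in NE-high lines included amino acid genes. This class held 1% of all genes entered. Of 21 targets of ATF4, the transcription factor of the amino acid stress response, 5 fell in this class, with a list median of -1.04 log2 units against NE-high and -0.41 against NE-low lines. Slc7a3, a cationic amino acid transporter, measured 18.9, 28.9 and 114.8 CPM in NE-high, 1.01 and 1.1 CPM in intermediate, and 0.126, 0.421 and 0 CPM in NE-low lines. Asns, asparagine synthetase, measured 245.5, 211.6 and 450.7 CPM, then 74 and 67.2 CPM, then 67.7, 142.1 and 122.1 CPM. RPC 2 had the highest level of both, and for Asns the intermediate lines lay at the lower end of the NE-low range. Sox2, a stem cell and neural factor, stood at 9.03 and 28.4 CPM against 84.4, 94.9 and 106.2 CPM in NE-high lines and within the NE-low range of 14.6 to 48.7 CPM for RPC 1 alone. Other members were Hdgfl3 (11.2 and 0.803 CPM), Mfsd2a, a lipid transporter (20.6 and 9.24 CPM), Aldh1l2, a mitochondrial folate enzyme (6.7 and 3.21 CPM) and Fam183b (0.304 and 0.402 CPM).

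Neuroendocrine genes were retained in the intermediate lines, but for the most part at a reduced level. Of 33 neuroendocrine identity genes 24 were above NE-low lines, 10 lay between the extremes, 5 were shared with NE-high and 0 with NE-low. The lines were selected for holding such genes, and Calca, a marker of the selection, is 1 of the 5, so these counts are partly set by the selection. The list median was -1.43 log2 units against NE-high and 3.73 against NE-low lines. Prox1, a homeobox factor, measured 539, 382.1 and 362.8 CPM in NE-high, 74.4 and 86.8 CPM in intermediate, and 0.379, 0.841 and 6.52 CPM in NE-low lines. The 3 sets did not overlap and the intermediate lines were close to each other. Insm1, a zinc finger factor of endocrine cells, followed at 40.3 and 87.5 CPM against 184.2, 201 and 211.9 CPM, and St18 at 33.1 and 47.3 CPM against 340.6, 175.2 and 203.9 CPM. Of 26 synaptic genes 8 were above NE-low lines, with a list median of 1.45 log2 units, 4 lay between, 2 were shared with NE-high and 1, the vesicle protein gene Vamp2, was shared with NE-low at a level below NE-high. Snap25, part of the vesicle fusion machinery, was at 16.7 and 16.5 CPM, against 76, 69.2 and 45.5 CPM in NE-high and at most 0.621 CPM in NE-low lines. The neural splicing factors Srrm3, Srrm4 and Nova1 also lay between, with Srrm4 at 6.29 and 14 CPM against 29.2, 29.6 and 30.9 CPM. In bulk RNA, fewer neuroendocrine cells and less of each transcript per cell cannot be told apart.

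A smaller group of neuroendocrine and neuronal genes was shared with NE-high lines, which allows set means up to 1 log2 unit apart. The intermediate mean differed from the NE-high mean by -0.98 log2 units for Calca, -0.91 for Pcsk2, -0.93 for Gria2 and -0.86 for Syt1. The 5 with the largest separation from the NE-low lines were Chl1, Pcsk2, F5, Cdo1 and Calca. Chl1, a neural adhesion molecule, measured 46.5, 109.7 and 17.1 CPM in NE-high, 35.6 and 40.3 CPM in intermediate, and 0, 0 and 1.09 CPM in NE-low lines. Pcsk2, a prohormone convertase, measured 51.9, 124.5 and 5.85 CPM, then 25.3 and 12.8 CPM, and 0 CPM in all NE-low lines. Celf3, a neuronal RNA-binding protein gene, Syt1, a synaptic calcium sensor, Gria2, a glutamate receptor subunit, and Scg2, a granule protein gene, belonged to the same class. RPC 2 was the lowest NE-high line for Chl1, Pcsk2, F5, Syt1, Gria2 and Scg2, RP 1 for Celf3 and Cdo1, and RP 3 for Calca. Cdkn1a, the p53 target that encodes the cell cycle inhibitor p21, was at 47.3 and 35.4 CPM, inside the NE-high range and above the NE-low maximum of 14.5 CPM. Of 21 p53 targets only this 1 was shared with NE-high, while 3 were shared with NE-low at a level above NE-high. Among those 3 were Plk2 (101.8 and 51.2 CPM) and Pmaip1 (82.6 and 16.6 CPM). The 11 genes that the intermediate and NE-high lines held at a lower level than NE-low lines included Gulp1 (0.406 and 0.602 CPM), Esx1 (0 and 0 CPM) and Runx3, a developmental transcription factor, at 23.3 and 14.5 CPM against 60.1, 164.5 and 152.4 CPM in NE-low lines. Mir6516 and Snora73b were also in this class, but short RNAs without a poly(A) tail are poorly measured by this kit.

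**Figure D2:**
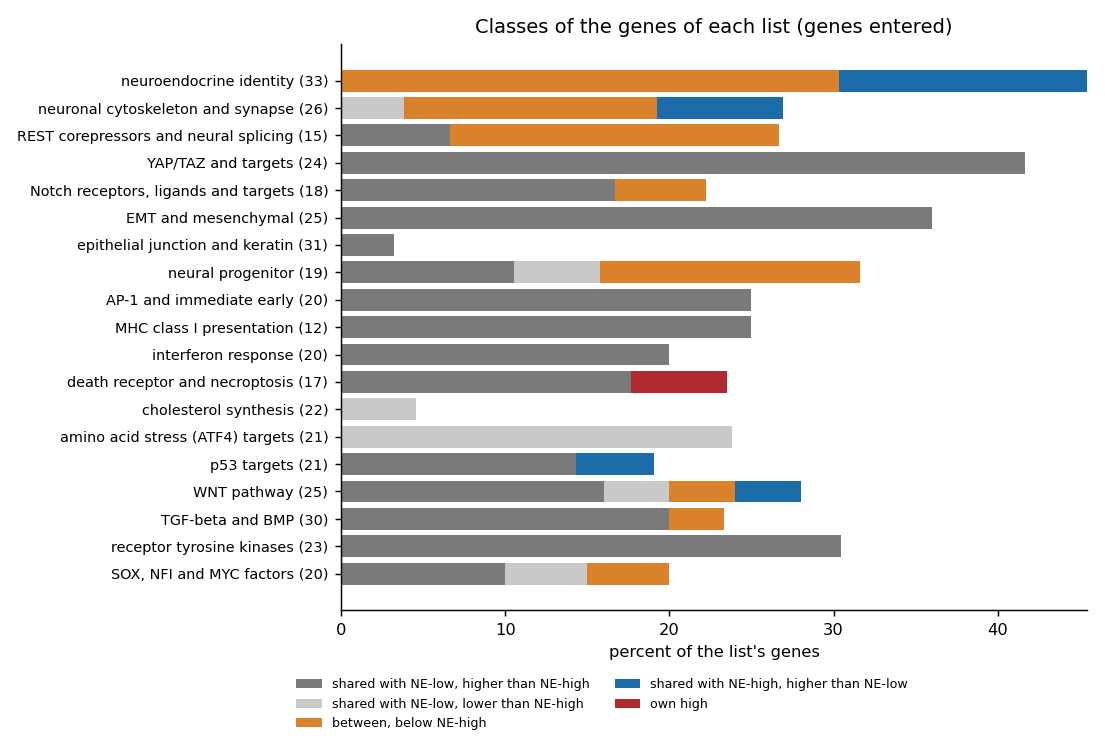
Share of the genes of each list, in percent of those with a mean of at least 1 CPM (number in brackets), that fell in each class. Lists with no gene in a plotted class are left out. The classed YAP/TAZ (10 of 24) and EMT genes (9 of 25) were shared with NE-low lines, the classed neuroendocrine genes lay between (10 of 33) or were shared with NE-high lines (5 of 33), and 5 of 21 ATF4 targets were shared with NE-low lines at a level below NE-high.

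How far the intermediate lines lay between the extremes was measured on genes chosen from the extremes alone. For the 478 genes (3.62%) at least 4-fold higher in every NE-high than in every NE-low line, RP 2 held a median of 23.6% of the NE-high level (25th to 75th percentile 17.3 to 30.3%) and RPC 1 a median of 22.8% (14.5 to 33%), where 0% is the NE-low and 100% the NE-high mean in CPM. On the log2 scale the same medians were 57.8 and 58.3%, so the place between the extremes depends on the scale. In 322 of the 478 genes both lines were between 10 and 50%. The genes Slc7a3 and Fam183b were at or below 5% in both. The order of the genes was not common to the lines: their percentages had a Pearson correlation of -0.05 and a Spearman correlation of -0.03 over the 478 genes, given as a description.

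For the 129 genes higher in NE-low lines the lines parted. RP 2 held a median of 84.1% of the NE-low level (59.1 to 118%) and RPC 1 of 53% (38.5 to 75.8%). In RP 2 45 of the 129 exceeded the NE-low mean, against 15 in RPC 1. Both lines reached at least 75% for 26 genes, among them Ptgs2, the inducible cyclooxygenase, at 130.7 and 87 CPM against 122.1, 75.8 and 68.3 CPM in NE-low lines, Cav1, a membrane caveolin, at 195.8 and 132.2 CPM, and S100a6, a calcium-binding protein gene, at 1715 and 1627.3 CPM. These were chosen after their values were seen. The median of the 5 YAP/TAZ genes among the 129 was 104% in RP 2 and 52.6% in RPC 1.

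**Figure D3:**
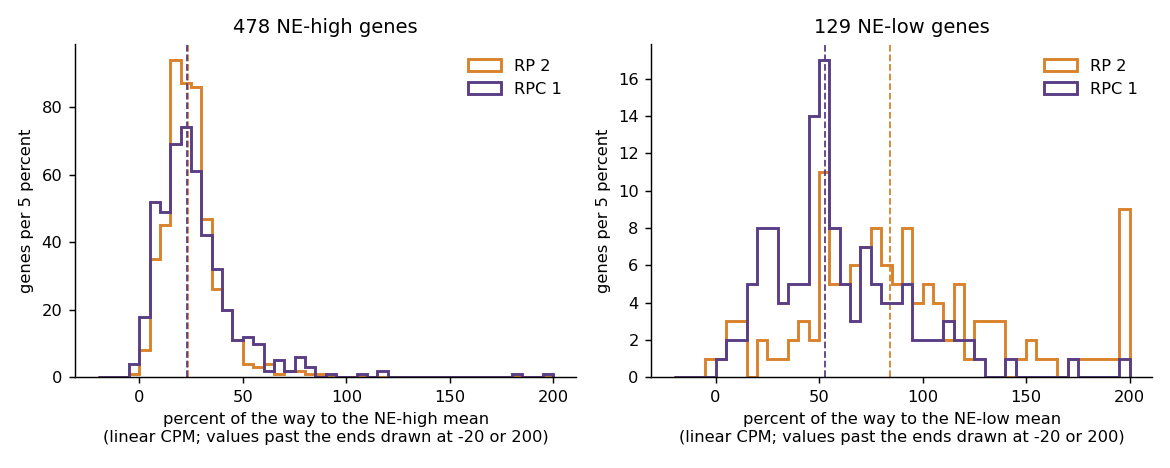
Number of genes (y axis, bins of 5 percent) by how far the intermediate lines lay from the opposite extreme to the named extreme in linear CPM (x axis, in percent), for the 478 NE-high genes and the 129 NE-low genes. Dashed lines are medians. Both lines peak near 23% for NE-high genes, at 23.6 and 22.8%, while for NE-low genes RP 2 lies at 84.1% and RPC 1 at 53%.

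To place these values against the extremes, each extreme line was measured on genes chosen without it. The NE-high lines RP 1, RP 3 and RPC 2 then held medians of 90.2, 67.8 and 87.6% of the NE-high level, and the NE-low lines between -0.56 and 1.8%. Both intermediate lines were outside either range. On the NE-low genes, the NE-low lines RP 4, RPC 3 and RPC 4 held 54.4, 73.8 and 79.7%, RPC 2 held 15.6%, and RP 1 and RP 3 held -3.83 and -3.68%. In number, RP 2 was above this NE-low range and RPC 1 just below it. The gene sets differ, with 129 genes for RP 2 and RPC 1, and 254, 193 and 179 for RP 4, RPC 3 and RPC 4. These places are therefore not a comparison of like with like. Against the NE-low mean, RP 2 carried the NE-low genes at a median of 84.1% and RPC 1 at 53%. Both carried the NE-high genes, which the NE-low lines lacked, at medians of 23.6 and 22.8% of the NE-high level. RPC 2 was the NE-high line with a measurable share of the NE-low genes.

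**Figure D4:**
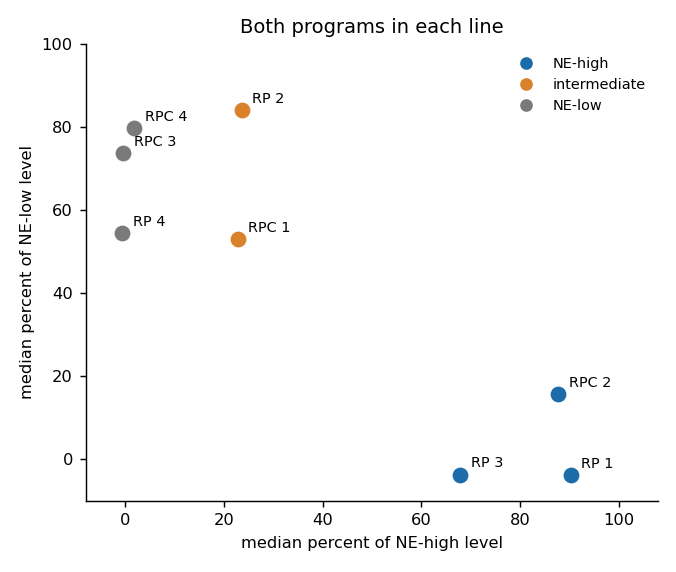
Median percent of the NE-high level (x axis) and of the NE-low level (y axis) in each of the 8 lines, coloured by line set. Genes were chosen from the extreme lines without the line plotted, so the gene sets differ between lines. RP 2 (23.6 and 84.1%) and RPC 1 (22.8 and 53%) sit beside the NE-low lines in height and apart from both extremes along the x axis.

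Only Tnfaip3, Gas6 and St6gal1 were at least 2-fold higher in both intermediate lines than in every other line. Tnfaip3, which encodes the NF-kappaB inhibitor A20 and lies on chromosome 10 (18874201 to 18891405, minus strand), measured 24.7 CPM in RP 2 and 15.1 CPM in RPC 1. The NE-high lines had 0.438, 0.2 and 0.928 CPM and the NE-low lines 5.43, 5.57 and 1.4 CPM. The intermediate mean was 3.77 log2 units above NE-high and 2.12 above NE-low lines. St6gal1, a sialyltransferase gene on chromosome 16 (23043460 to 23179103, plus strand), measured 60.5 and 52.3 CPM against 3.29, 0.401 and 10.8 CPM and 23.2, 24.6 and 6.67 CPM. Gas6, which encodes a ligand of the AXL receptor and lies on chromosome 8 (13515371 to 13544824, minus strand), measured 5.07 and 2.71 CPM against at most 0.742 CPM in the other 6 lines. It rests on 50 and 27 counts in the intermediate lines and did not pass the count filter of the genotype test. At a gap of 4-fold 0 genes were own to the intermediate lines. The search covered 13189 genes, of which these 3 are 0.0227%.

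By the count of genes that differ, the intermediate lines were the closest pair of the series. A total of 423 genes (3.21% of those entered) differed at least 4-fold between RP 2 and RPC 1, against 575 to 918 between NE-low lines, 742 to 938 between NE-high lines, 732 to 1087 between an intermediate and an NE-low line, and 1042 to 1621 between an intermediate and an NE-high line. Pearson's correlation over genes was 0.932 for the intermediate pair and nearly as high, 0.927, for RPC 3 and RPC 4. It was 0.883 to 0.919 with NE-low and 0.783 to 0.864 with NE-high lines.

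Of the 423 genes 240 (1.82% of all) were higher in RP 2 and 183 (1.39%) in RPC 1. Of 31 epithelial junction and keratin genes 12 were at least 4-fold higher in RPC 1 and 0 in RP 2, with a list median of -1.75 log2 units for RP 2 relative to RPC 1. Of 25 EMT genes 7 were higher in RP 2 and 0 in RPC 1. Cldn3, a tight junction claudin, measured 3.04 CPM in RP 2 and 57.3 CPM in RPC 1, and Cldn6 measured 1.01 and 61.9 CPM. Both genes varied as widely inside the extremes, with Cldn3 at 14.6, 122.4 and 50.8 CPM in NE-high and 224, 0.21 and 0 CPM in NE-low lines. Epcam, an epithelial adhesion molecule, stood at 28.6 and 160.6 CPM, whereas Cdh1, the epithelial cadherin, was similar at 418.2 and 336.1 CPM. On the mesenchymal side, Acta2 measured 5408.7 and 42.2 CPM, Lox, a collagen crosslinking enzyme, 458.5 and 23.9 CPM, Fstl1, a secreted glycoprotein gene, 960.2 and 37.7 CPM, and Fbln5, an elastic fibre protein gene, 107.3 and 0 CPM. For these 4 genes the level of RP 2 was nearest to RPC 3 or RPC 4, and that of RPC 1 was within or near the range of RP 4 and the NE-high lines. RPC 1 was higher for the neutrophil chemokine Cxcl5 (315.5 against 2.23 CPM), the monocyte chemokine Ccl2 (89.7 against 4.26 CPM) and the cell cycle factor E2f2 (1831.4 against 103.5 CPM). These genes, other than Acta2, were chosen after their values were seen.

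The neuroendocrine genes also differed in kind between the lines. The deviations of RPC 1 from the NE-high mean over the 478 genes correlated at 0.54 with those of RP 3, -0.28 with RP 1 and -0.34 with RPC 2, and those of RP 2 at -0.04, 0.11 and -0.06, as a description over genes that share these lines. The deviations of the NE-high lines from their own mean add up to 0, which sets part of this pattern. E2f2, the highest in RPC 1, was at 1513.5 CPM in RP 3. Mycl, the MYC family member typical of neuroendocrine SCLC, measured 1046.7, 2979.1 and 3391.5 CPM in NE-high lines, 227 CPM in RP 2 and 1897 CPM in RPC 1, while NE-low lines had 2.4 to 19.7 CPM. RPC 1 was thus inside the NE-high range and RP 2 below it. Glp1r, the incretin receptor, stood at 87.6 CPM in RP 2 and 3.92 CPM in RPC 1, with 317.9, 2.71 and 439.3 CPM in NE-high lines. Mycn measured 7.81 and 2.31 CPM, against 13.3, 2.51 and 45.4 CPM in NE-high and 15.8, 2 and 0.31 CPM in NE-low lines. Nfib, a nuclear factor often amplified in this model, measured 1396.3 CPM in RP 2 and 403.5 CPM in RPC 1, the lowest of the 8 lines. Ddx3y, Eif2s3y, Kdm5d and Uty of the Y chromosome were at 0 CPM in RP 2 and RP 1 and detected in the other 6 lines, including RPC 1, with Ddx3y at 27.4 CPM there.

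**Figure D5:**
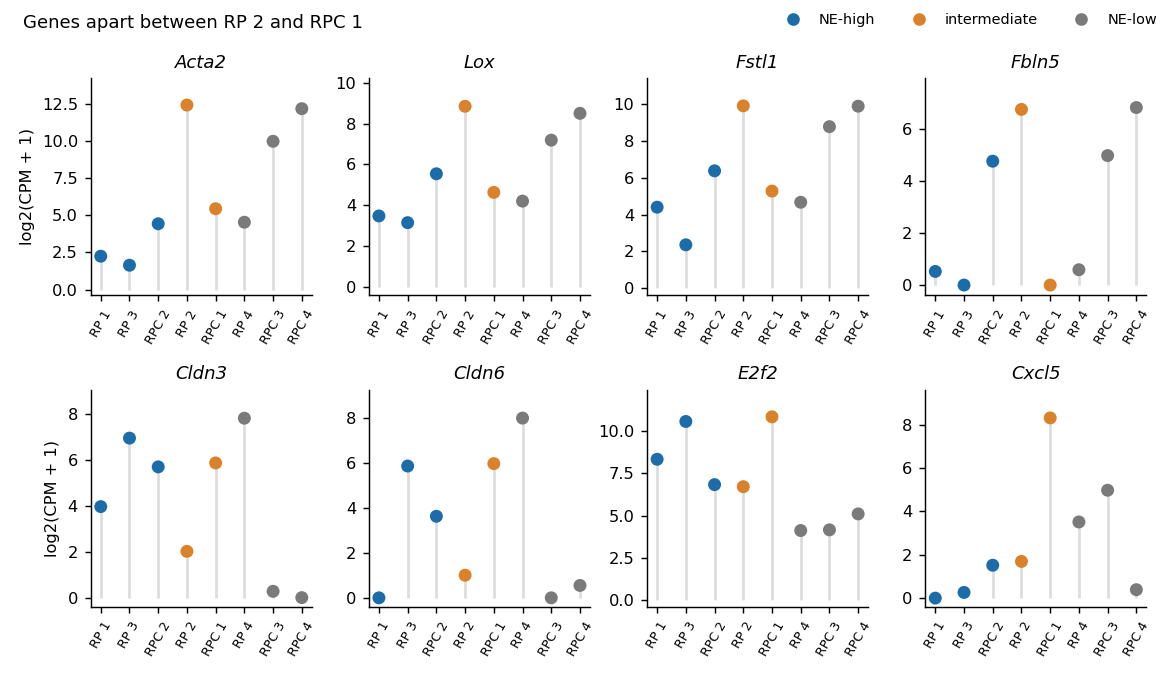
Levels of 8 genes that differ between RP 2 and RPC 1, as log2(CPM + 1), with 1 point a line coloured by line set. Acta2, Lox, Fstl1 and Fbln5 are higher in RP 2 (5408.7 against 42.2 CPM for Acta2), and Cldn3, Cldn6, E2f2 and Cxcl5 are higher in RPC 1.

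Some lists held few or no classed genes. DNA replication and mitosis (30 genes), ribosomal proteins (22), and hypoxia and glycolysis (23) had 0 genes in any class. The median of the replication list was 0.57 log2 units above NE-high lines, among which RPC 2 had the lowest summed level at 2540.6 CPM, compared with 5314 and 5991.2 CPM in the intermediate lines. In the cholesterol synthesis list 1 of 22 genes, Pmvk, was classed, being shared with NE-low at a level below NE-high. Of 12 HOX genes 7 were higher in NE-high than in NE-low lines, as were 978 of all 13189 genes by the same 2-fold rule. In the intermediate lines 2 HOX genes were above NE-low lines and 0 entered a class, with a median of -1.27 log2 units against NE-high.

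Since Rest distinguishes the sets, the promoters of neuroendocrine genes were searched for the letters of the REST site, TCAGCACC or GGACAGCG, on either strand, in RefSeq windows from 250 bases before to 50 after the start. The letters occurred in 885 of 27025 genes with a window (3.27%), and in 457 of the 9892 with a window among the genes entered (4.62%). Among genes that the intermediate lines shared with NE-high, 7 of 91 with a window held them (7.69%), against 6 of 113 between the extremes (5.31%), 4 of 100 shared with NE-low at a lower level (4%), and 20 of 401 shared with NE-low at a higher level (4.99%). The numbers are small, the windows differ in base composition, and a match of these letters is a description. None of the windows of these classes held both motifs letter for letter in order, 2 or 3 bases apart. The search allowed no mismatch, so sites that vary from these letters were not counted. In the Gria2 stretch below, ttagcacc, with t in place of c, stands 2 bases before GGACAGCG. In the Scg2 stretch ggacagct, with t in place of g, follows TCAGCACC directly, with no bases between. The stretches below show the letters, in capitals, for 2 genes that the intermediate lines shared with NE-high (Gria2 and Scg2) and 2 that lay between (Rab39b and Unc13a, chosen after their values were seen). All 4 overlap an untranslated part of an exon in GENCODE M39 (GRCm39) and are printed on the plus strand, the genes being on the minus strand.
Gria2, chr3:80710296-80710325: tttagcaccgcGGACAGCGctttggtccct
Scg2, chr1:79417732-79417761: ctcgggccgttTCAGCACCggacagctcct
Rab39b, chrX:74621807-74621836: tggcagcagcaTCAGCACCacgcactctga
Unc13a, chr8:72124361-72124390: gccatgtcgctTCAGCACCgggggcgcgga
The letters in Gria2 lie 172 to 165 bases before the RefSeq start, and those in Scg2 end at it. In Rab39b and Unc13a they lie 12 to 19 and 22 to 29 bases after it.

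Genotype was the only contrast that the line sets did not define. Comparing 4 RPC with 4 RP lines over 12739 genes, edgeR's quasi-likelihood test found 0 genes (0%) higher and 0 (0%) lower in RPC. The thresholds were an adjusted p of 0.05 and a log2 change of 0.58 in either direction. An unadjusted p under 0.05 was reached by 213 genes, fewer than that threshold gives by chance over 12739 genes. DESeq2 with default parameters called 11 higher and 2 lower. The study, which corrected its DESeq2 p-values with fdrtool, reported genes significantly changed in both directions. That correction was not applied here. With the line set as a term in the edgeR fit, which compares RPC with RP lines within sets, 0 genes passed. There 305 genes had an unadjusted p under 0.05, again fewer than chance gives. For Casp8 the log2 fold change of RPC over RP was -1.77 ± 0.66 (SE), and -2.1 ± 0.41 with the line set as a term, with an edgeR adjusted p of 1 in both. Tnfaip3 differed by -0.42 ± 1.41 and St6gal1 by 0.11 ± 1.22 between the genotypes (edgeR adjusted p of 1 for both). The intermediate set holds 1 line of either genotype, so that within it the genotype and the line cannot be told apart.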

How the data were processed

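Libraries of 8 lines were made with a 3′ mRNA kit. Per the labels and the study's methods, the authors aligned reads to GRCm39 with STAR 2.7.10a, quantified genes with Salmon 1.5.2 and deposited estimated counts per gene, written as whole numbers and not normalized, for 23649 genes. The deposited DESeq2 1.36.0 comparison of the genotypes (log2 fold changes, standard errors and p-values) was not used. Groups follow the labels, and line sets follow the selection on expression described above. The members, gene lists and rules were chosen with earlier results of these data known.

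Estimated counts were turned into CPM with TMM factors from genes kept by edgeR's filterByExpr. Genes with a mean of at least 1 CPM entered, and set differences were taken on log2(CPM + 1) in Python 3. Named genes were Calca, Rest, Yap1, the deleted genes, chosen SCLC factors, up to 10 per direction for own genes, 5 for shared and 4 for between, by the size of the gap, and up to 4 per list and class, without predicted genes. Genotype was tested with edgeR 4.0.16 in R 4.3.3 (quasi-likelihood F test, Benjamini-Hochberg), DESeq2 1.42.0 being an alternative. Both procedures were tested on simulated data. Same-numbered lines come from different mice and are not paired. Gene positions are from GENCODE M39, matched by identifier for 99.3% of genes, and promoter windows from RefSeq (GRCm38.p6), placed on GRCm39 by exact match where printed. Counts carry no stated molecular identifiers. Alternatives were other size factors, a pseudocount of 0.1, other filters and gaps, and leaving out each line. Some genes under the naming rule are not reported here.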

Additional observations from a re-analysis of the deposited data

Results flagged for a closer look

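Among 44 groups of 4 lines of one genotype, Dixon's test set 4 single values apart from the other 3 lines of their genotype, and chance alone gives about 1 in 20. None of them belonged to an intermediate line. Rest in RPC 2 was at 5.56 on the log2(CPM + 1) scale, against 7.79 to 8.21 in the other RPC lines, and Myc there was at 1.26, against 2.58 to 2.83. Calca in RP 4 was at 0, against 7.72 to 8.11 in the other RP lines. Calca and Rest were used to choose the line sets. RP 4 is the only NE-low line among the RP lines, and RPC 2 the only NE-high line among the RPC lines. That these values stand apart is thus partly set by the selection, and the rate of chance does not apply to them. RPC 4 had the lowest total, 7128455 counts.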

How the results depend on the processing

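Scaling, pseudocount and filters left the classes within 1.5 times of the values given, with 621 to 717 genes shared with NE-low lines, 114 to 165 shared with NE-high lines, 147 to 216 between and 2 to 4 own genes. The gap decided the counts. At 4-fold, 145 genes were shared with NE-low, 30 shared with NE-high, 3 between and 0 own. With ranges that merely do not overlap and means 2-fold apart, 1834, 378 and 513 genes entered these classes, and 40 were above and 3 below both extremes. Leaving out each line gave 600 to 1166 genes shared with NE-low, 113 to 354 shared with NE-high, 169 to 237 between, 3 to 58 own genes above and 0 to 5 below both extremes. The most shared with NE-low arose without RPC 1 (1166) and without RPC 2 (1118), and the most own genes without RP 2 (58), where a single intermediate line has to pass. Without RP 4 219 genes, and without RPC 3 199 genes, were shared with NE-high. Over the lines left out, RP 2 held 21.5 to 24.4% and RPC 1 18.3 to 24.3% of the NE-high level, and 76.8 to 91.3% and 43.3 to 61.3% of the NE-low level. On the log2 scale the medians were 57.8 and 58.3%, and 95 and 82.5% for the NE-low genes. Leaving out a line can only keep or widen a gap, so it cannot end a call under this rule. It can change a class, since sharing also needs set means within 1 log2 unit. Without RP 1, for example, Wnt4 counted as an own gene. Of 127 named differences, 0 turned their direction in 1897 alternatives. Most of these alternatives leave out a line or loosen the gap, so they could neither end nor turn a call. A call was ended by 72 alternatives, 70 of them at the 4-fold gap and the others for Ripk1 under other size factors. The genotype test called 0 genes with any line left out. An unadjusted p under 0.05 was reached by 132 to 520 genes, each time fewer than that threshold gives by chance. With the replicate block, which pairs lines by number only, the test called 0 higher and 0 lower. Here 134 genes had an unadjusted p under 0.05, also fewer than chance gives. The correlations of same-numbered lines ran from -0.533 to 0.364. DESeq2 called 11 and 2. Depth limits genes near 1 CPM, where 3 counts matter, and 2 lines give no estimate of spread for a set.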

Other observations

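When a gene needed only ranges that do not overlap and means 2-fold apart, 40 genes were higher in the intermediate lines than in both extremes. Those named here were chosen after their values were seen. Ahr, the aryl hydrocarbon receptor, measured 38.1 CPM in RP 2 and 44.4 CPM in RPC 1, against 1.75, 5.11 and 12.2 CPM in NE-high and 8.46, 25.9 and 8.22 CPM in NE-low lines. Csf1, the macrophage growth factor gene, measured 116.4 and 99.7 CPM against at most 31.3 CPM in NE-high lines, with RPC 4 at 98.7 CPM close behind. Pparg, a nuclear receptor of lipid metabolism, stood at 4.06 and 6.22 CPM, above at most 2 CPM elsewhere. Cstb, a cysteine protease inhibitor gene, stood at 188.1 and 278.8 CPM against at most 140.6 CPM. In each the nearest line outside the set was less than 2-fold away on the log2(CPM + 1) scale.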
